A study of Mus musculus with 11 samples.

Results

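Receptors that bind antibodies, their signalling adaptors and members of the CD300 family were followed as 10 genes: Fcgr1, Fcgr2b, Fcgr3, Fcgr4, Fcer1g, Tyrobp, Cd300ld5, Cd300ld, Cd300lf and Cd300a. They were found by gene symbol in a table of 17181 genes, and all 10 were present. The set was chosen by measured levels: it was put together because the FPKM of Cd300ld5 and Fcgr3 lay higher in tumours given OPG-Fc. For that reason the comparison of OPG-Fc with vehicle is given here as a description and without a test. Which comparison showed this is not stated, and combination tumours received OPG-Fc too. Cd300ld5 and Fcgr3 are therefore described without a test throughout, and tests are given for the other 8 genes. RNA came from 11 tumours that grew from the mouse mammary carcinoma line 4T1, injected under the skin of both flanks. Vehicle tumours (n = 2, called untreated in their titles) received sodium lactate with corn oil in DMSO. OPG-Fc tumours (n = 3) received 10 mg/kg of OPG-Fc by intraperitoneal injection 3 times a week, palbociclib tumours (n = 3) received 30 mg/kg of palbociclib by mouth each day, and combination tumours (n = 3) received both. Treatment lasted 12 days from a tumour volume of about 100 mm3, and the labels give the genotype of all samples as WT. OPG-Fc joins osteoprotegerin, the decoy receptor for RANKL, to the Fc part of an antibody, and palbociclib inhibits the kinases CDK4 and CDK6. The hosts were NSG mice according to the series design. This strain has no mature T, B or NK cells and keeps macrophages and neutrophils; the series title calls the model syngeneic. The sources used here do not give the age or sex of the animals or say which tumours shared an animal. In the column names, combination replicates 1 and 2 share a number, and so do OPG-Fc replicates 2 and 3, so these groups may hold 2 independent units rather than 3. The p-values measure the spread between these tumours.

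Fc gamma receptors bind the constant part of IgG on macrophages, neutrophils and other leukocytes. The activating receptors FcγRI, FcγRIII and FcγRIV (Fcgr1, Fcgr3 and Fcgr4) signal through the FcR gamma chain (Fcer1g), which carries an immunoreceptor tyrosine-based activation motif, or ITAM, and recruits the kinase SYK. FcγRIIB (Fcgr2b) carries the inhibitory counterpart, an ITIM, and recruits the phosphatase SHIP1. DAP12 (Tyrobp) is a second ITAM adaptor, used by receptors such as TREM2, and in osteoclast precursors both adaptors supply the co-stimulation that RANK needs. The CD300 family holds paired activating and inhibitory receptors for lipids of myeloid cells: Cd300a and Cd300lf carry ITIMs, and Cd300ld is an activating member.

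Vehicle replicate 2 differed most from the rest: it had an FPKM of 11.7 for the epithelial gene Epcam, against 336 to 604 elsewhere, and of 723 for the B cell gene Cd79a. OPG-Fc replicate 2 was second for Cd79a, at 73.6, and the 9 others were at 0.06 to 3.36. Markers of T and NK cells summed to 527 and 115 in these 2 libraries and to at most 34.0 elsewhere. Lymphoid transcripts at these levels go against the host strain that the design names, and their source was not tested. The correlation of log2(FPKM + 1) across genes was 0.75 between the 2 vehicle libraries and 0.97 to 0.99 within the other groups. FPKM counts fragments per kilobase of transcript, scaled to the fragments mapped in the library, and is a level per length. Values were tested with limma as log2(FPKM + 1) on the 13074 genes that reached an FPKM of 1 in 2 or more libraries, and all 10 receptor genes were among them. The threshold was an adjusted p of 0.05 (Benjamini-Hochberg, over the 13074 genes). Standard errors and p-values from limma rest on a spread per gene that all groups share, the vehicle tumours included. They are therefore not the spread of the compared tumours alone. Each fit was repeated with vehicle replicate 2 left out; the lone vehicle library is then taken to have the spread of the remaining groups. Depth was roughly estimated from low FPKM values of genes with 1 annotated transcript. Values were grouped in windows set beforehand for 1 and for 2 fragments, so the windows bound the estimate. With an assumed fragment of 200 bases, the window medians had ratios of 1.522 to 1.949, where whole fragments would give 2. Depth came to roughly 20300000 to 25000000 fragments a library, and to 19500000 to 28000000 with assumed fragments of 150 to 300 bases. Whether the values fall into steps was not tested.

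OPG-Fc on top of palbociclib was compared with palbociclib alone (n = 3 against n = 3). Besides Cd300ld5 and Fcgr3, all 8 other genes had a higher mean log2 level with the combination, but 0 of 8 passed in limma with all 11 libraries, where 0% of the 13074 genes passed. Without vehicle replicate 2, again 0 of 8 genes and 0% of all genes passed. At an unadjusted p under 0.05, 6 of the 8 lay higher with all 11 libraries, against 4.22% of all genes, and 6 of 8 without vehicle replicate 2, against 10.5%. The median log2 fold change of the 8 was 0.80, and that of all tested genes 0.02. In 6 of the 8 every combination tumour lay above every palbociclib tumour, which held for 13.7% of all genes. The exceptions were Fcgr4 and Cd300lf. With array weights, which count deviating libraries less, 5 of the 8 and 671 genes in all passed. Since all 10 genes were brought together for levels with OPG-Fc, these counts are no independent support for a direction. Macrophage markers moved with them: 15 of 15 had a higher mean with the combination, 0 of 15 passed, and their median log2 fold change was 0.83; their part in the receptor values was not tested. In bulk tumour RNA, fewer cells of a type and less RNA per cell cannot be told apart.

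**Figure D1:**
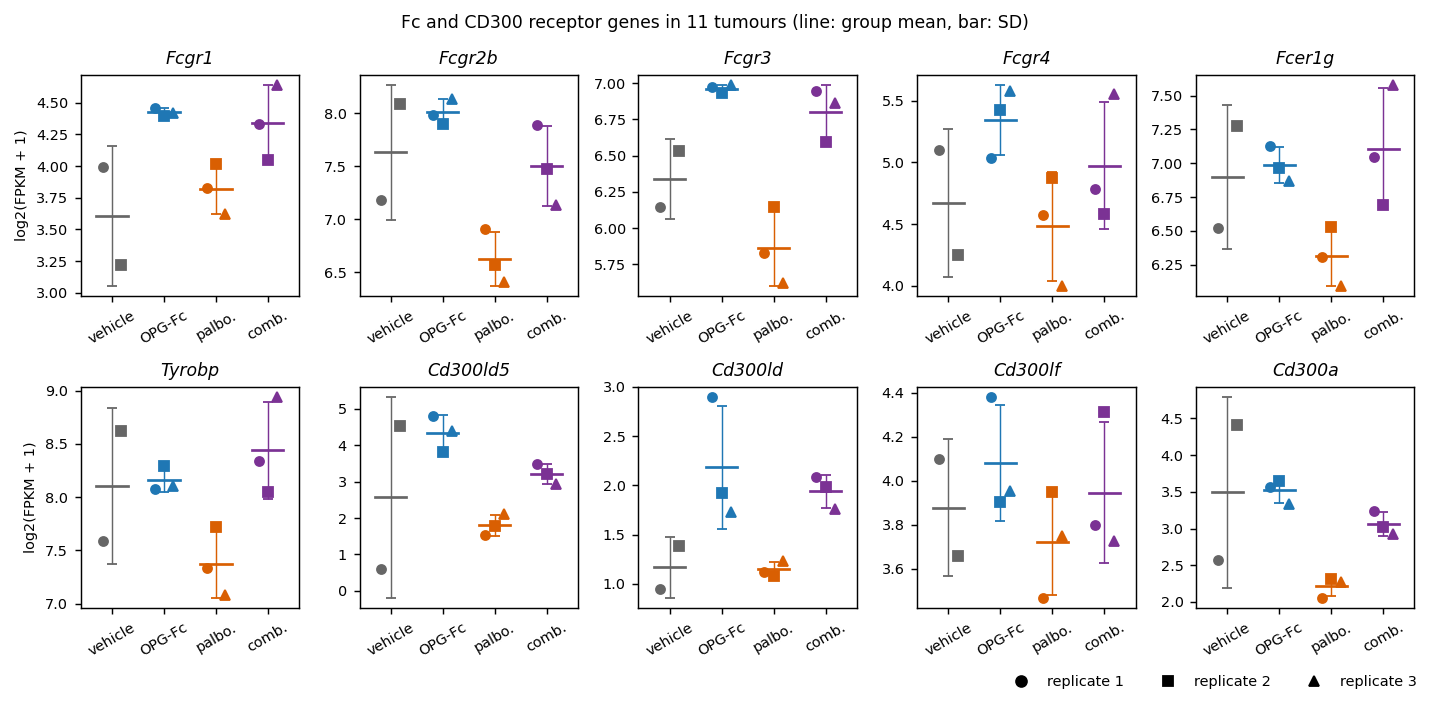
Each panel plots log2(FPKM + 1) of 1 gene (y axis) in the 11 tumours by group (x axis); symbols mark replicate numbers, lines the group means and bars the SD. Palbociclib tumours all sit below the combination tumours in 8 of the 10 panels, an order seen in 13.7% of all genes. Cd300ld5 and Fcgr3, which helped to choose the set, are among the 8. The 2 vehicle tumours lie far apart in most panels.

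Among the activating Fc receptors, Fcgr3 encodes the low-affinity receptor FcγRIII. Its FPKM was 69.8 and 91.6 in vehicle replicates 1 and 2, and 124, 121 and 126 in OPG-Fc replicates 1 to 3. It was 55.9, 69.6 and 48.2 in palbociclib replicates 1 to 3, and 122, 95.7 and 116 in the combination tumours in the same order. All 6 tumours given OPG-Fc, alone or combined, thus lay above the 5 others. Fcgr3 was higher in the combination than with palbociclib by 0.94 ± 0.17 on the log2 scale (SE from the spread shared by all groups, n = 3 against 3). This is given without a test because Fcgr3 helped to choose the set. Over fits that each left out 1 library the difference ran from 0.82 to 1.08, and over all processing alternatives from 0.66 to 1.08.

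The high-affinity receptor gene Fcgr1 was lower in level and had the same order. Its FPKM was 14.95 and 8.3 in the vehicle tumours, 21.0, 20.1 and 20.4 with OPG-Fc, 13.2, 15.2 and 11.3 with palbociclib, and 19.2, 15.6 and 24 with the combination. The lowest tumour given OPG-Fc, combination replicate 2 at 15.6, was just above the highest of the others, palbociclib replicate 2 at 15.2. Fcgr1 differed between combination and palbociclib by 0.52 ± 0.22 (limma adjusted p = 0.730, and 0.172 without vehicle replicate 2). Fcgr4 encodes FcγRIV, a receptor of monocytes, macrophages and neutrophils. Its groups overlapped: FPKM was 33.3 and 17.97 with vehicle, 31.7, 42.1 and 47.0 with OPG-Fc, 22.9, 28.3 and 14.99 with palbociclib, and 26.6, 22.9 and 46.2 with the combination. Combination against palbociclib gave 0.49 ± 0.33 for Fcgr4 (limma adjusted p = 0.758, and 0.380 without vehicle replicate 2). It was 0.20 without combination replicate 3 and 0.25 without palbociclib replicate 3.

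The inhibitory receptor gene Fcgr2b had the highest level per length of the 4 Fc gamma receptor genes in every tumour. Its FPKM was 144 and 270 with vehicle, 253, 237 and 281 with OPG-Fc, 119, 93.7 and 83.8 with palbociclib, and 237, 177 and 139 with the combination. Every palbociclib tumour lay below the tumours of all other groups. The combination exceeded palbociclib by 0.88 ± 0.26 (limma adjusted p = 0.650, and 0.0903 without vehicle replicate 2). FcγRIIB is also the Fc receptor of B cells, and the B cell and plasma cell markers summed to an FPKM of 6847 in vehicle replicate 2 and 782 in OPG-Fc replicate 2, against at most 1.23 with palbociclib and at most 17.5 in the combination tumours. The part of these cells in the Fcgr2b level was not tested. An annotated Fcgr3 transcript shared 12.8% of its 50-base windows with Fcgr2b and 3.53% of its 100-base windows with another gene, so a small share of reads could be given to either gene.

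Ratios of an activating receptor to Fcgr2b were taken within each tumour as differences of log2(FPKM + 1), so that scaling between libraries largely cancels. Fcgr3 to Fcgr2b was -0.76 ± 0.33 with palbociclib and -0.70 ± 0.37 with the combination (SD, n = 3 each), and lower with OPG-Fc alone, at -1.04 ± 0.10 (n = 3), and with vehicle, at -1.29 ± 0.36 (n = 2). Fcgr1 to Fcgr2b was -2.80 ± 0.27 with palbociclib and -3.16 ± 0.58 with the combination. Fcgr4 to Fcgr2b was -2.14 ± 0.39 and -2.53 ± 0.83 in the same order. A difference between combination and palbociclib was not detectable for the Fcgr1 and Fcgr4 ratios by exact two-sided permutation tests (unadjusted p = 0.4 and 0.6). The smallest p possible in this design is 0.1. The difference in the Fcgr3 ratio, given without a test, was 0.06 and became -0.0949 without palbociclib replicate 1 and -0.15 without combination replicate 3.

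Upstream sequences are shown for Fcgr1 and Fcgr3, the 2 Fc receptor genes whose tumours given OPG-Fc all lay above the rest. They are the 250 bases before the gene start from RefSeq, build GRCm38.p6, read 5′ to 3′; the deposited values come from the later build GRCm39. Capitals mark GAGGAA on either strand (TTCCTC on the other), a core of sites for PU.1, the myeloid transcription factor encoded by Spi1.
Fcgr1, GRCm38.p6 chr3:96293970-96294219, minus strand: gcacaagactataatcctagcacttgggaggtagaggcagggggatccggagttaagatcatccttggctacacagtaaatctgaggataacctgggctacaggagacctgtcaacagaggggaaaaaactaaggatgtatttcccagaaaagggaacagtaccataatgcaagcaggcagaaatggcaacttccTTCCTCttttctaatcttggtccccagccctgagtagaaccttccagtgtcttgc
Fcgr3, GRCm38.p6 chr1:171059404-171059653, minus strand: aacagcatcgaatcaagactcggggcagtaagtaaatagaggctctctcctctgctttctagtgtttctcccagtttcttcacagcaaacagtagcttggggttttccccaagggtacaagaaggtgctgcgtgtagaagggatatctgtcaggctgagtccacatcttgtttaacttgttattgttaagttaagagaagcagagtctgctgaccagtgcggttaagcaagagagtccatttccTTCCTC
Both genes held GAGGAA on the other strand, in Fcgr3 next to the start shown, the first of 2 listed for this gene. Of the 10 genes 9 had a promoter in the RefSeq table; GAGGAA lay in 7 of the 9. Its share over 27025 promoters of the same length, 1 a gene, was 23.1%. A match describes the letters, without showing that a factor binds.

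Both adaptor genes had their lowest mean with palbociclib, as the 4 Fc receptor genes except Fcgr1 did, but their highest mean with the combination, where the spread was wide. Tyrobp FPKM was 191 and 393 with vehicle, 269, 312 and 275 with OPG-Fc, 160, 209 and 134 with palbociclib, and 322, 264 and 491 with the combination. Fcer1g FPKM was 91.0 and 154 with vehicle, 139, 124 and 116 with OPG-Fc, 78.3, 91.2 and 67.3 with palbociclib, and 131, 102 and 191 with the combination. Combination replicate 3 was the highest of the 11 tumours for both adaptors and among the highest for Fcgr4, and its FPKM values also had the highest sum, 864670. Differences between combination and palbociclib were 1.07 ± 0.30 for Tyrobp (limma adjusted p = 0.644, and 0.0888 without vehicle replicate 2) and 0.80 ± 0.26 for Fcer1g (adjusted p = 0.730 and 0.121). After rescaling each library to the same FPKM sum they were 0.92 and 0.65.

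In the CD300 family, Cd300a, an inhibitory receptor of myeloid and mast cells, had separate groups apart from the vehicle tumours. Its FPKM was 4.95 and 20.3 with vehicle, 10.9, 11.6 and 9.07 with OPG-Fc, 3.15, 3.97 and 3.84 with palbociclib, and 8.47, 7.08 and 6.58 with the combination. The difference between combination and palbociclib was 0.85 ± 0.38 (limma adjusted p = 0.730, and 0.0570 without vehicle replicate 2). Cd300ld was low throughout, at 0.93 and 1.62 with vehicle, 6.46, 2.78 and 2.32 with OPG-Fc, 1.18, 1.12 and 1.35 with palbociclib, and 3.23, 2.95 and 2.38 with the combination. Here too all 6 tumours given OPG-Fc lay above the 5 others, and the combination differed from palbociclib by 0.79 ± 0.29 (adjusted p = 0.730 and 0.208). With Fcgr1 and Fcgr3 this made 3 of the 10 genes with that order, which was seen in 0.635% of all genes; since the set was chosen for higher levels with OPG-Fc, nothing is read from that share. Cd300lf, an ITIM receptor of macrophages and neutrophils, was the most even gene: 16.1 and 11.6 with vehicle, 19.8, 14.0 and 14.5 with OPG-Fc, 10.1, 14.4 and 12.4 with palbociclib, and 12.9, 18.9 and 12.2 with the combination. Its groups all overlapped, and combination against palbociclib gave 0.23 ± 0.22 (adjusted p = 0.829 and 0.555). Without combination replicate 2 it was 0.04, and without palbociclib replicate 1 it was 0.10.

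Cd300ld5 varied most, over a range of FPKM from 0.53 to 26.8. It was 0.53 and 22 in vehicle replicates 1 and 2, 26.8, 13.0 and 20.02 with OPG-Fc, 1.89, 2.43 and 3.31 with palbociclib, and 10.2, 8.22 and 6.68 with the combination. Vehicle replicate 2 thus lay within the OPG-Fc range and vehicle replicate 1 below every other tumour, at a level worth roughly 8.6 fragments. Combination tumours lay above the palbociclib tumours and below the OPG-Fc tumours. The difference between combination and palbociclib was 1.41 ± 0.78 with all 11 libraries and 1.41 ± 0.26 without vehicle replicate 2, given without a test.

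The sequence of Cd300ld5 leaves little to tell it from its neighbours. In the GENCODE annotation used here (release for GRCm38), 100% of the 100-base windows of its 852-base transcript also occurred in transcripts of other genes, chiefly Cd300ld4 and Cd300ld3. The annotated transcripts of Cd300ld5 and Cd300ld4 were identical at 851 of 852 bases, and those of Cd300ld5 and Cd300ld3 at 843 of 852. Cd300ld was less alike, with 87.4% identity to Cd300ld5 over 810 aligned bases. Of its 100-base windows 1.37% occurred in transcripts of any other gene, and its 50-base windows were shared chiefly with Cd300lf. The FPKM given to Cd300ld5 alone is therefore uncertain, and the 3 genes were also summed. Upstream of the start, Cd300ld5 and Cd300ld4 did not differ over 250 bases, and Cd300ld5 and Cd300ld3 differed at 13 of 250. Cd300ld5 and Cd300ld3 are shown to let the copies be compared, with GAGGAA in capitals as above.
Cd300ld5, GRCm38.p6 chr11:115037691-115037940, minus strand: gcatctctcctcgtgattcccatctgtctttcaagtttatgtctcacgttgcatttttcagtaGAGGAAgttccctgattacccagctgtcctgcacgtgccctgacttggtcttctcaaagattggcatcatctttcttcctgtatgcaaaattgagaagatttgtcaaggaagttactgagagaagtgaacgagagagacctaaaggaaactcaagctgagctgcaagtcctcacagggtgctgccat
Cd300ld3, GRCm38.p6 chr11:115048331-115048580, minus strand: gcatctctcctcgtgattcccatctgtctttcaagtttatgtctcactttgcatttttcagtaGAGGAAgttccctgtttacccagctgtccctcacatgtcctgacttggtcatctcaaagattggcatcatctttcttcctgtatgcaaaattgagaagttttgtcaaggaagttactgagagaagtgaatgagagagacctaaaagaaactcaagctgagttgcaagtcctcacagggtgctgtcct
Both copies hold GAGGAA at the same distance from the start.

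Summed over Cd300ld3, Cd300ld4 and Cd300ld5, FPKM was 6.02 and 63.3 with vehicle and 69.2, 49.3 and 60.0 with OPG-Fc. It was 13.9, 7.33 and 7.23 with palbociclib, and 54.5, 24.0 and 14.9 with the combination. The combination tumours again all lay above the palbociclib tumours, although combination replicate 3 exceeded palbociclib replicate 1 by little. The share of the sum given to Cd300ld5 ran from 8.80% in vehicle replicate 1 to 45.8% in palbociclib replicate 3. The sum differed between combination and palbociclib by 1.48 ± 0.72 and, without vehicle replicate 2, by 1.48 ± 0.41, also without a test. Cd300ld3 alone had an FPKM of 43.2 in combination replicate 1, against 15.3 and 7.93 in replicates 2 and 3.

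**Figure D2:**
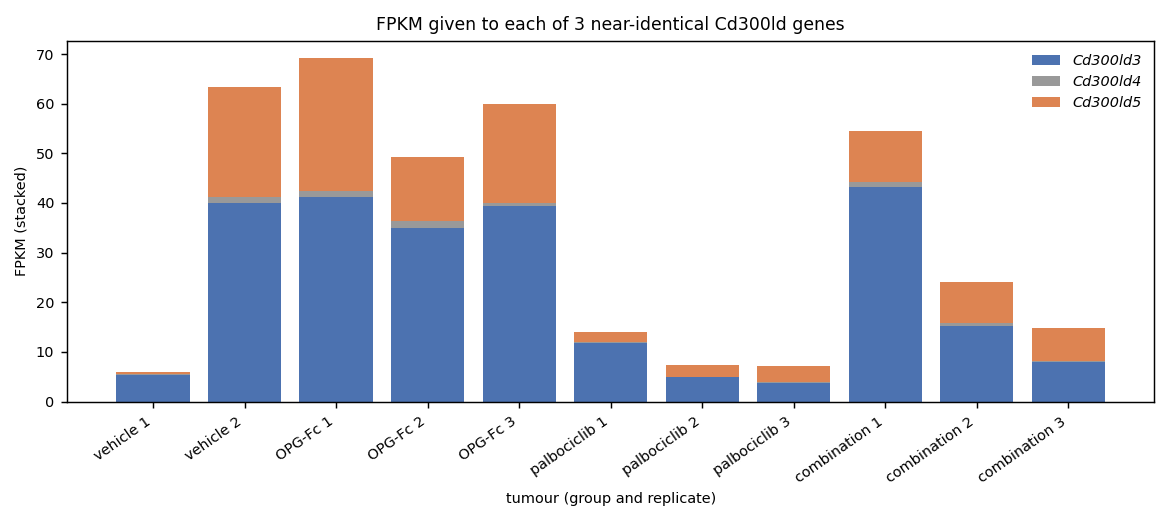
Stacked bars give the FPKM (y axis, from 0) that the deposited table assigns to Cd300ld3, Cd300ld4 and Cd300ld5 in each tumour (x axis). Sums are 6.02 in vehicle replicate 1, 49.3 to 69.2 with OPG-Fc and 7.23 to 13.9 with palbociclib, and the split between the genes varies within groups.

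Against vehicle, OPG-Fc gave log2 fold changes that depended on the vehicle library, and they are listed as a description of the values behind the choice of genes. Without vehicle replicate 2 Cd300ld5 was at 3.72 ± 0.36, and with both vehicle tumours at 1.76 ± 0.87. The corresponding values were 0.82 ± 0.21 and 0.62 ± 0.19 for Fcgr3, 0.43 ± 0.23 and 0.82 ± 0.25 for Fcgr1, and 0.83 ± 0.28 and 0.37 ± 0.29 for Fcgr2b. Cd300a was at 0.95 ± 0.20 and 0.03 ± 0.42, and Cd300lf at -0.02 ± 0.28 and 0.20 ± 0.25. In 3 of the 10 genes every OPG-Fc tumour lay above both vehicle tumours, against 12.7% of all genes. Without OPG-Fc replicate 2, Cd300ld5 was at 2.03 ± 0.98 and Fcgr2b at 0.43 ± 0.34. Whether the fold change with OPG-Fc differs between tumours with and without palbociclib was not tested, because levels with OPG-Fc chose the genes.

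**Figure D3:**
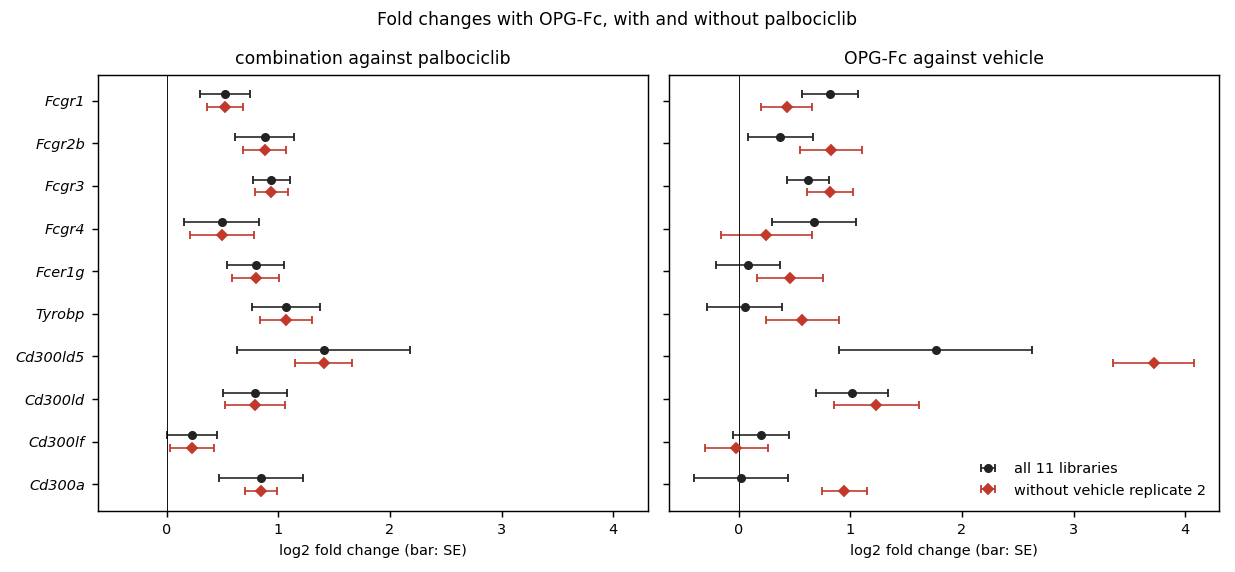
Points are log2 fold changes (x axis) of the 10 genes (y axis) for combination against palbociclib (left) and OPG-Fc against vehicle (right), with all 11 libraries (black) and without vehicle replicate 2 (red); bars are standard errors. On the left all values are above 0, from 0.23 for Cd300lf to 1.41 for Cd300ld5; on the right values for Cd300ld5 and Cd300a move most with vehicle replicate 2.

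Palbociclib alone was set against vehicle (n = 3 against 2, or 1). Of the 8 genes tested, 0 passed in limma in either fit, where 0% of all genes passed. At an unadjusted p under 0.05, 2 of the 8 lay lower with all 11 libraries, Cd300a and Fcgr2b, against 14.5% of all genes. Without vehicle replicate 2 that number was 0 of 8, against 3.62% of all genes. Cd300a was at -1.28 ± 0.42 (limma adjusted p = 0.158) and Fcgr2b at -1.01 ± 0.29 (adjusted p = 0.158), and without vehicle replicate 2 they were at -0.36 ± 0.20 (adjusted p = 0.571) and -0.56 ± 0.28 (adjusted p = 0.543). With Fcgr3 they were the 3 of 10 genes whose palbociclib tumours all lay below both vehicle tumours, against 20.2% of all genes. For Fcgr3 the gap was very small, with palbociclib replicate 2 at an FPKM of 69.62 and vehicle replicate 1 at 69.78. Fcgr3 was at -0.47 ± 0.19 and -0.28 ± 0.21 in the 2 fits. Cd300ld5 changed sign, from -0.76 ± 0.87 to 1.19 ± 0.36. Without vehicle replicate 1, so that the library rich in lymphoid transcripts was the control, 5 of the 8 genes and 6802 genes in all passed.

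The combination was also set against OPG-Fc alone, to show palbociclib on top of OPG-Fc (n = 3 against 3). Of the 8 genes tested 0 passed in limma with all 11 libraries, where 0.0994% of all genes did, and 0 passed without vehicle replicate 2, where 4.7% did. At an unadjusted p under 0.05, 0 of the 8 lay lower with all 11 libraries, against 8.77% of all genes, and 2 of the 8 without vehicle replicate 2, against 19.1%. Fcgr2b was at -0.51 ± 0.26 (limma adjusted p = 0.372, and 0.122 without vehicle replicate 2) and Cd300a at -0.46 ± 0.38 (adjusted p = 0.573 and 0.0770), and for both every combination tumour lay below every OPG-Fc tumour, an order seen in 23.5% of all genes. For Fcgr2b the gap was very small, with combination replicate 1 at an FPKM of 236.76 and OPG-Fc replicate 2 at 237.29. Without OPG-Fc replicate 2, Fcgr2b was at -0.56 ± 0.31 (limma adjusted p = 0.472) and Cd300a at -0.39 ± 0.44 (limma adjusted p = 0.747). Cd300ld5 had the same order and was at -1.12 ± 0.78. Fcgr3 was at -0.16 ± 0.17, with overlapping groups, and ran from -0.47 to -0.06 over all processing alternatives.

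Levels were next set beside those of macrophages in the same tumour. The mean log2(FPKM + 1) of the 15 macrophage markers was 4.97 to 5.22 with palbociclib and 5.33 in vehicle replicate 1. It was 5.58 to 6.16 with the combination, 6.25 to 6.39 with OPG-Fc and 6.41 in vehicle replicate 2. Summed FPKM of the list reached 1148 to 1500 in palbociclib tumours and 2027 to 4490 in combination tumours. After subtracting the macrophage mean of the same tumour, Fcgr3 was at 0.61 to 1.05 in palbociclib tumours, 0.78 to 1.01 in combination tumours, 0.59 to 0.69 with OPG-Fc, and 0.82 and 0.12 with vehicle. On this scale the combination differed from palbociclib by 0.10 for Fcgr3, against 0.94 before, and by 0.57 for Cd300ld5, against 1.41 before; both are given without a test. For 9 of the 10 genes the 2 groups overlapped, Cd300ld5 and Fcgr3 among them. The share over all genes was not computed on this scale, so nothing is read from that count. Fcgr1 had the combination wholly below palbociclib (-0.31, exact permutation p = 0.1, the smallest the design allows). The gap was very small, with combination replicate 3 at -1.4004 and palbociclib replicate 1 at -1.3983. Cd300lf was at -0.61 (exact permutation p = 0.2) and Fcgr4 at -0.34 (exact permutation p = 0.4), and Tyrobp was at 0.23 (exact permutation p = 0.5). The 4 remaining differences lay between -0.04 and 0.04. These exact p-values are not adjusted for the number of genes, and the design allows none under 0.05.

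**Figure D4:**
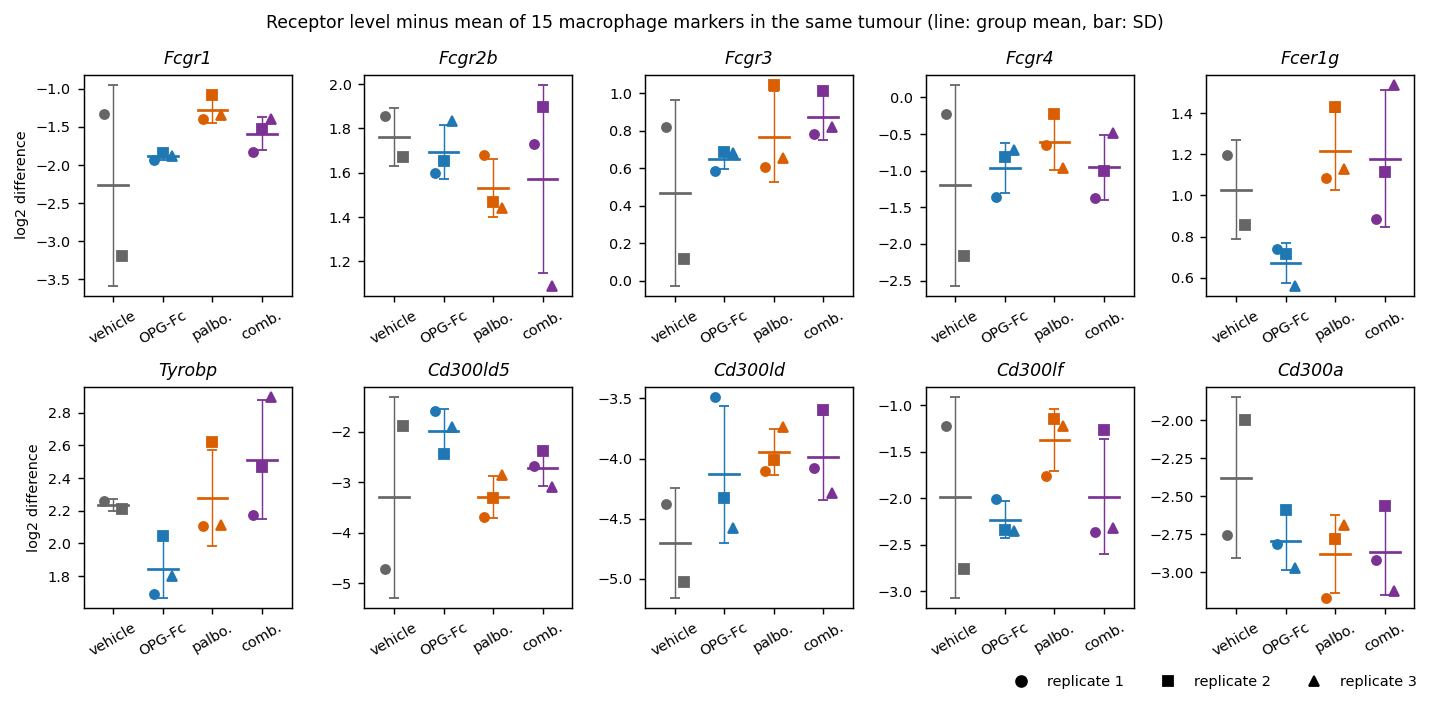
The y axis is log2(FPKM + 1) of each gene minus the mean of 15 macrophage markers in the same tumour, by group (x axis), with group means (lines) and SD (bars). Fcgr3 lies between 0.59 and 1.05 in all tumours except vehicle replicate 2, at 0.12, and its palbociclib and combination tumours overlap.

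Other lists of the pathway were described by the same comparison, combination against palbociclib, where 0 genes of any list passed in limma with all 11 libraries or without vehicle replicate 2. The 5 tested of 8 other CD300 genes in the table centred on a log2 fold change of 0.62 (median), with Cd300c2, an activating receptor, at 0.75 ± 0.17 and Cd300ld3 at 1.40 ± 0.73, or 0.77 ± 0.73 without combination replicate 1. The 13 other inhibitory myeloid receptors had a median of 0.63, with Lilrb4a at 0.65 ± 0.21 and the C-type lectin gene Clec4a2 at 0.72 ± 0.28. Partners of Fcer1g or Tyrobp (18 tested of 20 in the table) had a median of 0.32. Among them were Trem2, the lipid receptor that signals through DAP12, at 1.09 ± 0.32, and Clec4n, the fungal receptor dectin-2, at 0.83 ± 0.21. Oscar, an FcR gamma partner of osteoclasts, had an FPKM of 0.14 or less in every tumour.

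Downstream of the receptors, the 19 ITAM signalling genes had a median of 0.36, with Card9, an adaptor of C-type lectin signalling, at 0.36 ± 0.13. Syk itself had an FPKM of 4.45 to 5.67 in palbociclib tumours and 6.64 to 8.21 in combination tumours, against 96.7 in vehicle replicate 2. The 4 ITIM phosphatase genes had a median of 0.08, with Inpp5d, which encodes SHIP1, at 0.47 ± 0.50 and Ptpn11 at -0.39 ± 0.20. The 9 tested of 12 other antibody-binding receptors had a median of 0.22, with Fcgrt at 1.54 ± 0.46 (limma adjusted p = 0.650, and 0.0543 without vehicle replicate 2) and Pigr at -0.89 ± 0.28. Fcgrt encodes the neonatal Fc receptor, which recycles IgG and Fc fusion proteins. Its FPKM was 30.8, 25.7 and 19.5 with palbociclib, 87.5, 49.6 and 94.2 with the combination, 121, 110 and 112 with OPG-Fc, and 30.4 and 132 with vehicle, so every combination tumour lay above every palbociclib tumour.

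Marker lists of other cells were described by the same comparison. The 15 macrophage markers, all 15 with a higher mean in the combination, included C1qc, of complement C1q, at 1.00 ± 0.28 and Lyz2, of lysozyme, at 1.75 ± 0.49. The median for neutrophil markers (11 tested) was -0.02, with Ltf at -1.30 ± 0.37 and Csf3r at 0.53 ± 0.32, and their summed FPKM was 449 to 1249 in palbociclib tumours and 256 to 1672 in combination tumours. Medians were -0.04 for dendritic cells (6 tested), -0.13 for mast cells (7 tested), 0.44 for B cells and plasma cells (8 tested, all 8 higher) and 0.07 for T and NK cells (7 tested). For endothelium, adipocytes and tumour epithelium (8, 8 and 6 tested) they were 0.10, 1.20 and -0.15, with 8 of 8, 8 of 8 and 2 of 6 higher. The 8 skin markers had a median of -2.40, and their summed FPKM was 1455, 154 and 1301 in palbociclib replicates 1 to 3, against 102 to 267 with the combination. The part of these cells in the receptor levels was not tested.

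Genes with profiles most like Cd300ld5 and Fcgr3 were looked up among all tested genes, by the root-mean-square difference of mean-centred log2(FPKM + 1) over the 11 tumours. Nearest to Cd300ld5, whose own root-mean-square spread was 1.30, were Lrg1 (0.49), Clec4a3 (0.58), Clec4a1 (0.59), Pltp (0.59) and Hp (0.61). Among the nearest to Fcgr3, with a spread of 0.47, were Arl11 (0.16), Ctss (0.16), Cnrip1 (0.18) and Cdr2 (0.18). Ctss, which encodes the lysosomal protease cathepsin S, had an FPKM of 264 to 317 with palbociclib, 445 to 581 with the combination and 604 to 687 with OPG-Fc.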

How the data were processed

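RNA of 11 tumours was enriched for poly(A), reverse transcribed with random primers and sequenced, per the labels' protocols. The authors deposited FPKM per gene in 1 table, per the file headers; the submitters' processing notes name HISAT, Bowtie2 and RSEM and the builds GRCm39 and mm39, with no versions or roles. The 10 genes, the gene lists and the tests were chosen with earlier results of these data known. A test of Cd300ld5 and Fcgr3 between combination and palbociclib was planned and is not used, since the choice of genes may rest on those tumours.

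Groups came from the treatment labels. Log2(FPKM + 1) of all 13074 genes passing the filter was fitted by group with limma 3.58.1 (R 4.3.3), its variance prior following expression. The p-values were adjusted over all of them. The fit was also tried on simulated data whose spread was estimated without vehicle replicate 2. That trial does not show how the fit behaves with that library included. Fits without a library kept the same genes. In the tested comparisons fold changes were given for all 10 genes (combination against palbociclib) or for the 3 largest plus Cd300ld5 and Fcgr3, and for the 2 genes with the smallest p of each pathway list and of the macrophage and neutrophil lists. Some genes that this rule names are not reported here. Other genes named with values (Epcam, Cd79a, Syk, Oscar, Ctss) were chosen after their values were seen. Summing the 3 Cd300ld genes, subtracting macrophage markers, and the alternatives of an equal FPKM sum and of leaving out palbociclib replicates 1 and 3 were chosen after seeing the data. Deviations of same-numbered replicates had correlations of -0.41 to 0.53, the highest between vehicle replicate 2 and OPG-Fc replicate 2. With such mixed values, replicate numbers were not taken to pair tumours. The numbers shared in column names were not examined by this check. Alignments used Biopython 1.88 and figures matplotlib 3.10.9 in Python 3.11.15.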

Additional observations from a re-analysis of the deposited data

How the results depend on the processing

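For combination against palbociclib the 10 fold changes kept their direction under all alternatives except Cd300lf, which was at -0.0019 without palbociclib replicates 1 and 3, a fit with 1 palbociclib library. Array weights, whose estimation stopped before reaching its tolerance, gave 671 genes and 5 of the 8 receptor genes tested. Over all 10 receptor genes the count was 7. That count takes in Cd300ld5 and Fcgr3, which helped to choose the set, so nothing is read from it. Fits without 1 library gave 0 to 143 genes, the highest without palbociclib replicate 2. In those fits 0 of the 8 receptor genes tested passed. For palbociclib against vehicle 1 gene passed with a pseudocount of 0.1 and 3 after quantile normalization, and fits without 1 library gave 0 to 6802 genes and 0 to 5 receptor genes, the highest without vehicle replicate 1. Without palbociclib replicate 2 that comparison gave 156 genes. For combination against OPG-Fc 13 genes passed. A pseudocount of 0.1, no filter, median-of-ratios scaling, quantile normalization, the replicate block, averaging libraries that share a number, and leaving out palbociclib replicates 1 and 3 each gave 0 genes. Array weights gave 3490 genes and 2 receptor genes, only the 2 groups compared 160, an equal FPKM sum 25, and fits without 1 library 0 to 623 genes and 0 receptor genes. Among fits without 1 library, that count rose when either vehicle library was left out and was 0 when any other library was left out. With the replicate number as a block the count of receptor genes was 0 in all 3 comparisons. The ratio differences ran from -0.69 to -0.15 for Fcgr1, -0.15 to 0.23 for Fcgr3 (reversed at -0.0949 without palbociclib replicate 1 and -0.15 without combination replicate 3) and -0.86 to -0.094 for Fcgr4 over fits without 1 library. The cause of these changes was not tested. Depth limits the low genes most, such as Cd300ld5 in vehicle replicate 1 at an FPKM of 0.53.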
